A study of Mus musculus with 116 samples.

Results

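The joins described here are RAG-made joins in which bases aligned to neither partner stand between the Jk1 end and the Vk end. Such bases can still repeat a partner's sequence, as the palindromes below do. Members were chosen by the read itself: a deposited row was taken when at least 1 read base lay between the end of its bait alignment and the start of its prey alignment. The gap length chose them, so having a gap is no result. Members numbered 542897 of 1374899 rows in 42 RAG libraries, and 178243 of 326690 joins after identical rows of a library were merged (the same prey position, prey orientation, Jk1 end and inserted bases). The whole series held 2482573 rows. At the threshold itself, joins with exactly 1 inserted base made up 20.3% ± 0.335 (SD, n = 3) of rows in WT clone A and 0.359% ± 0.0432 (SD, n = 3) in Ku70-/- clone B1. Joins just outside it, with bait and prey directly abutting, made up 34.4% ± 0.295 and 52.8% ± 0.154 of rows in the same groups.

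All cells were mouse v-Abl pro-B cells, immature B-lineage cells transformed with the v-Abl oncogene. They carried an Emu-Bcl2 transgene, which drives the survival protein Bcl2 in lymphoid cells, and were held in G1 with the Abl inhibitor STI-571 at 3 µM for 96 h. The controls without a further allele, called WT here, were clones A and B. Ku70-/- cells were clones A1 and B1, and Lig4-/- cells were clones A1 (in 2 sets of libraries), B1 and C. Lig4-/-Ku70-/- cells were clones A1_1 and C1, and the same clones with Ku70 added back are written Lig4-/-Ku70-/- +Ku70. Lig4-/- clones A1 and C with Lig4 added back are written Lig4-/- +Lig4. Each of the 14 groups had 3 libraries, and each genotype rests on clones whose derivation the labels do not give. Clones whose names begin with the same letter are called a lineage.

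RAG cuts beside V and J segments and leaves hairpin-sealed coding ends, which the nuclease Artemis opens before joining. A hairpin opened off its tip leaves a short self-complementary overhang, and when that overhang is kept in the join it reads as a palindrome of the segment's last bases, known as P nucleotides. Terminal deoxynucleotidyl transferase (TdT), a polymerase of lymphoid precursors, can add N nucleotides that follow no template. Ku70 is a subunit of the Ku ring that binds broken ends, and Lig4 is the ligase of classical non-homologous end joining.

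The joins below show the kinds of insertion on which the results turn. Capitals mark the inserted bases; the lower-case bases before them are the Jk1 end and those after them are the Vk side, all read 5′ to 3′ from Jk1 towards Vk. The Jk1 end lies on chromosome 6 of mm10 at chr6:70722562-70722601, read on the minus strand, and its last base at 70722562 is the first base of Igkj1 in RefSeq GRCm38.p6. The intact end is shown first because palindromes are read against it.
Jk1 end: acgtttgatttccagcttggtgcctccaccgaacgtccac
The joins present in the most WT libraries carried 1 base, a G, which is the palindromic complement of the final c of Jk1. The first was found in 3885 rows of 6 WT libraries and the second in 2478 rows of 6.
WT Igkv12-44: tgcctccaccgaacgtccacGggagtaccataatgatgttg
WT Igkv1-135: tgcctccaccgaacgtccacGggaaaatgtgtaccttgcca
In Lig4-/-Ku70-/- cells, the join below had 15 rows in 2 libraries of clone C1, and its 14 inserted bases are all palindromic to Jk1. Its Vk side began 573 bases inside the annotated segment, counted from the end facing the join, so it is no example of an intact Vk end. The next had 7 rows in 2 libraries, and its 15 inserted bases are all palindromic to the Vk end.
Lig4-/-Ku70-/- Igkv8-16: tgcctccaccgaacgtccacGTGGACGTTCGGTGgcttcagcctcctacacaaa
Lig4-/-Ku70-/- Igkv1-135: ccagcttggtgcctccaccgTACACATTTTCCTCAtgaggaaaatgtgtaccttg
The longest palindromes, chosen after the values were seen, show the range in WT, Ku70-/- and Lig4-/-Ku70-/-. The WT, Ku70-/- and Lig4-/-Ku70-/- examples hold runs of 9, 18 and 22 bases from the Jk1 end, and the last 2 lines hold runs of 23 and 25 bases from the Vk end.
WT Igkv3-7: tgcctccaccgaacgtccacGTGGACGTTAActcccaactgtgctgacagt
Ku70-/- Igkv8-30: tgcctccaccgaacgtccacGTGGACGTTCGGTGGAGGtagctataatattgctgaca
Lig4-/-Ku70-/- Igkv12-44: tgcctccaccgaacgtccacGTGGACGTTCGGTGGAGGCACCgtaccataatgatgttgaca
Ku70-/- Igkv10-95: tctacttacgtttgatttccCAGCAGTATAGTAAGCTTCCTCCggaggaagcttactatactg
Lig4-/-Ku70-/- Igkv12-44: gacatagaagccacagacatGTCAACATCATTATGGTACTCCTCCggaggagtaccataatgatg
A Lig4-/- join of clone B1, 1 row, carried palindromic bases from both ends, 8 from Jk1 and 4 from Vk.
Lig4-/- Igkv4-80: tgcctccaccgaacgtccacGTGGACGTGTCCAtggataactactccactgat
The last kind ends in a copy of another Vk coding end. The 15 bases of this insertion, found in 51 rows of 6 WT libraries, occur at the coding ends of Igkv4-73, Igkv4-72, Igkv4-71, Igkv4-68 and Igkv4-59, while the prey was Igkv4-61.
WT Igkv4-61: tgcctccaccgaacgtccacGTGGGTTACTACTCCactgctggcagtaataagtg

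Libraries held 3 to 305846 rows, and the share of rows in a RefSeq Vk segment was 96.1%. Lineages A and C were sequenced on a MiSeq and lineage B on a NextSeq, per the labels, so lineage B and its instrument cannot be told apart. No read name was shared between replicates, and in the 27 replicate pairs with enough rows the Vk usage differed in all 27 by a chi-square test (highest p 0.0351). Of the smaller library's distinct joins, 40.9 to 50.5% recurred in the other replicate for WT clone A and 34.8 to 36.1% for Ku70-/- clone B1, but 7.38 to 10.9% did for Ku70-/- clone A1, 4.63 to 11.2% for the Lig4-/-Ku70-/- clones and 0.847 to 1.69% for clone C1 with Ku70 added back. Nothing in the labels says that replicates came from separate cultures, so the p-values measure only the spread between these libraries. Identical rows can be recurrent joins or PCR copies, and counting intervals cover counting error only.

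Insertions were common where both Ku70 and Lig4 were present and rare where Ku70 was missing. WT clone A libraries had inserted bases in 62.4%, 61.5% and 61.9% of rows, and WT clone B libraries in 43.1%, 42.8% and 42.8%. Ku70-/- clone A1 libraries had them in 1.59%, 0.863% and 1.60% of rows, and clone B1 libraries in 1.88%, 2.08% and 1.80%. The 6 Ku70-/- libraries all lay below the 6 WT libraries. The difference was -50.8 percentage points (lineage A -60.6, lineage B -41.0; two-sided exact permutation within lineage, p = 0.005, the smallest this design can give, adjusted p = 0.0095 over 19 tests). Between libraries of the same sequencing run it was -50.7 points. Counting insertions of at least 2 bases it was -32.9 points. Over distinct joins it was -79.0 points, with 83.4% ± 0.0402 (SD, n = 3) of distinct joins carrying an insertion in WT clone B and 3.36% ± 0.29 in Ku70-/- clone B1. Distinct shares depend on depth; at a common depth of 500 rows the expected distinct share was 64.0% in WT clone A and 46.3% in WT clone B.

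Lig4-/- libraries held 3 to 74 rows each and 70 insertion rows in all, of 490. Their shares were 14.3%, 10.8% and 4.05% in clone A1, 0%, 21.9% and 7.69% in its second set, 18.0%, 29.1% and 28.3% in clone B1, and 12.5%, 0% and 4.35% in clone C. Merged within libraries, the insertion rows were 54 distinct joins of 284. The 14.3% was 5 rows of 1 distinct join, the 10.8% was 4 rows of 2, and the 21.9% was 7 rows of 4. The 0 of 17 rows in clone A1 allows a share of up to 17.6% (3 counts of the total), and the clone C library at 0% held only 3 rows. The 95% Wilson interval of the library with 29.1% ran from 18.8 to 42.1%. Clones A1 (first set) and B1 all lay below the WT libraries of their lineage, with a difference of -35.0 points (lineage A -52.2, lineage B -17.8; exact permutation p = 0.005, adjusted p = 0.0095). The difference was -36.0 points within sequencing runs, -63.7 over distinct joins and -21.6 for insertions of at least 2 bases. Of the 8 distinct insertion joins in the second set of clone A1, 2 also occurred in the first. Joins also found in another genotype of the same sequencing run were 0 of 6 and 1 of 8 in the 2 sets of clone A1, 5 of 36 in clone B1 and 0 of 4 in clone C. For another genotype in another run the counts were 2, 3, 5 and 1.

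With Lig4 added back, all 6 libraries lay above every Lig4-/- library of their lineage. Lig4-/- +Lig4 libraries had insertions in 54.4%, 51.4% and 48.9% of rows in clone A1 and in 55.6%, 52.3% and 52.8% in clone C. The gain over Lig4-/- was 44.9 points (lineage A 41.8, lineage C 48.0; exact permutation p = 0.005, adjusted p = 0.0095). These genotypes were never sequenced in the same run, so genotype and run cannot be told apart here.

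Losing Ku70 as well as Lig4 left a low share of insertions. Lig4-/-Ku70-/- libraries had them in 2.62%, 2.63% and 2.72% of rows in clone A1_1 and in 3.37%, 4.94% and 3.57% in clone C1. Against Lig4-/- (second set of clone A1, and clone C) the difference was -4.43 points, or -2.56 within sequencing runs, and missed the threshold (exact permutation p = 0.28). Leaving out 1 library at a time, it still missed the threshold in 11 of 12 cases (exact permutation p up to 0.61). The exception left out the Lig4-/- library of 17 rows and 0 insertions, giving -6.89 points with an exact permutation p = 0.04. Against Lig4-/- +Lig4, a comparison added after earlier results were known, the difference was -49.3 points (exact permutation p = 0.005, adjusted p = 0.0095), or -30.1 for insertions of at least 2 bases. Those groups share no sequencing run either. With Ku70 added back, the shares were 8.70%, 0% and 10.0% in clone A1_1 and 5.50%, 10.6% and 2.55% in clone C1. The ranges of the groups with and without added Ku70 overlapped, and the difference of 2.92 points (2.90 within sequencing runs) missed the threshold (exact permutation p = 0.18). Leaving out 1 library at a time, it still missed the threshold in 11 of 12 cases (exact permutation p up to 0.365). The exception left out the library of 75 rows and 0 insertions, which allows up to 4.00%, giving 4.48 points with an exact permutation p = 0.03. Of the 9 distinct insertion joins of clone A1_1 with added Ku70, 6 also occurred in another genotype sequenced in another run and 3 in another genotype of the same run.

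**Figure D1:**
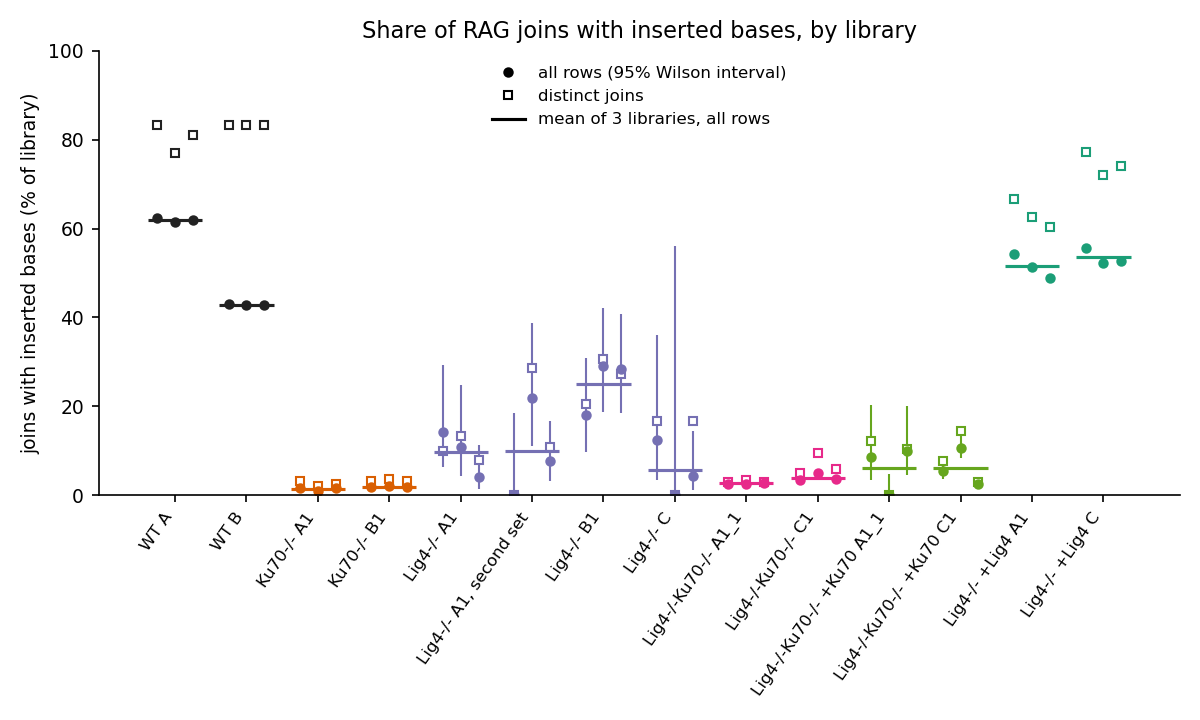
Percent of joins with inserted bases in each RAG library, with 3 libraries per group; filled circles count all rows with 95% Wilson intervals, open squares count distinct joins, and bars are means over rows. WT and Lig4-/- +Lig4 libraries sit between 42.8 and 62.4% of rows, and Ku70-/- and Lig4-/-Ku70-/- libraries between 0.863 and 4.94%.

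Counted over rows, the few insertions found without Ku70 were longer on average. In WT, 1 base made up 32.7% ± 0.31 (SD, n = 3) of insertions in clone A and 37.6% ± 0.211 in clone B, and 2 bases 36.8% ± 0.746 and 37.2% ± 0.0965. Insertions of 7 to 11 bases were 1.88% ± 0.51 in WT clone A and 1.41% ± 0.0134 in WT clone B, and those of 12 to 30 bases 0.808% ± 0.554 and 2.46% ± 0.0474. Ku70-/- clone A1 had 5.34% ± 2.98 and 2.97% ± 3.52 in these classes, with spreads that reach the WT values in the longer class. In Ku70-/- clone B1 they held 14.2% ± 1.45 and 11.1% ± 0.721, and in Lig4-/-Ku70-/- clone C1 they held 10.4% ± 0.644 and 24.9% ± 1.77. Over distinct joins the class of 12 to 30 bases held 7.17% ± 0.145 in WT clone B and 3.39% ± 3.99 in Ku70-/- clone A1, against 11.3% ± 0.589 in Ku70-/- clone B1. Clone A1 thus did not exceed WT clone B in this class. The longest insertion in any list was 30 bases.

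Mean insertion length was 2.49, 2.33 and 2.40 bases in WT clone A and 2.46, 2.47 and 2.46 in WT clone B. It was 3.08, 2.65 and 3.77 bases in Ku70-/- clone A1 and 5.11, 4.83 and 5.21 in clone B1. Over rows, every Ku70-/- library lay above every WT library. The mean was 1.67 bases longer (lineage A 0.763, lineage B 2.58; exact permutation p = 0.005, adjusted p = 0.0095). Within sequencing runs the difference was 1.72 bases. It was 0.621 bases over distinct joins (exact permutation p = 0.03), 0.340 bases with joins merged on gap rather than inserted sequence (exact permutation p = 0.1), and 0.667 bases between medians (exact permutation p = 0.05), so the last 2 missed the threshold. Over distinct joins the libraries overlapped. Ku70-/- clone A1 had means of 3.275, 2.79 and 3.86 bases, all below WT clone B at 4.00, 4.04 and 4.05. Its replicate 2 also lay below WT clone A at 3.24, 2.97 and 3.00. Clone B1 lay above both WT clones, at 5.10, 4.83 and 5.18.

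Lig4-/-Ku70-/- insertions averaged 3.86, 6.21 and 6.04 bases in clone A1_1 and 6.99, 6.59 and 7.51 in clone C1. Those of Lig4-/- +Lig4 averaged 2.27, 2.21 and 2.15 bases in clone A1 and 2.31, 2.21 and 2.26 in clone C. The groups did not overlap, with a difference of 3.97 bases (exact permutation p = 0.005, adjusted p = 0.0095) and of 2.00 bases between medians. In clone C1 with Ku70 added back the means were 5.29, 4.43 and 8.93 bases, from 24, 65 and 15 rows, and they overlapped the 3 libraries without it (difference -0.809 bases, exact permutation p = 0.6, where 0.1 is the smallest possible). Within Lig4-/- only 2 libraries, both of clone B1, had 10 or more insertions, with means of 6.06 and 4.18 bases, and no test was made.

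**Figure D2:**
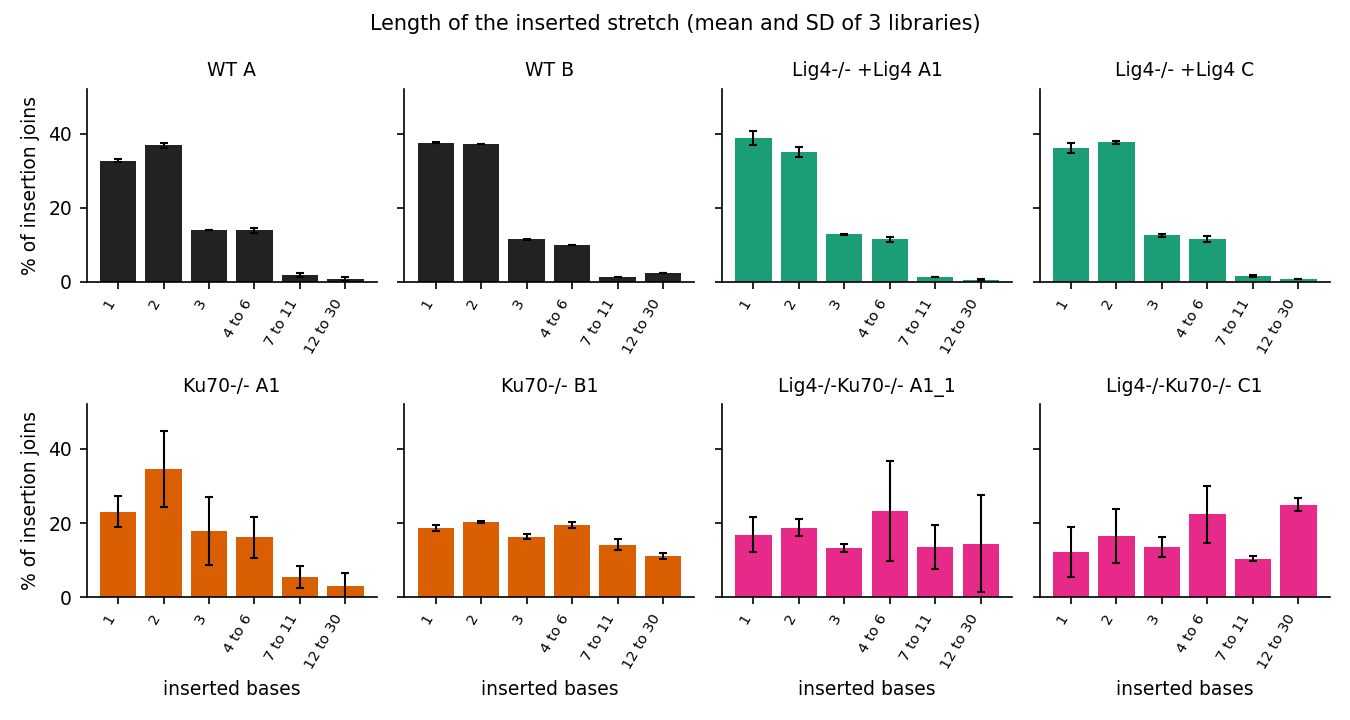
Percent of insertion joins in each class of inserted length (bases), as the mean over 3 libraries with SD, for 8 groups. WT and Lig4-/- +Lig4 fall off after 2 bases, whereas Ku70-/- clone B1 keeps 11.1% and Lig4-/-Ku70-/- clone C1 24.9% in the class of 12 to 30 bases.

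Insertions also differed in which Jk1 ends they sat on. End loss was the number of bases missing from the Jk1 coding end, with 0 for an intact end. An inserted base that equals the next germline base is taken into the alignment, so gap and end loss are partly coupled, and insertion joins are set against other joins here without a test. In WT, intact ends were frequent among both kinds of join: 50.5% ± 0.729 (SD, n = 3) of insertions and 47.3% ± 1.28 of other joins in clone A, and 53.0% ± 0.138 and 40.3% in clone B. In Ku70-/- clone B1, 22.4% ± 0.517 of insertions had an intact Jk1 end and 0.337% of other joins did. In Lig4-/-Ku70-/- cells the values were 31.8% ± 8.01 against 0.310% in clone A1_1 and 30.98% ± 8.31 against 0.391% in clone C1. Of the joins that kept the whole Jk1 end in these 3 groups, most carried an insertion: 56.6% ± 1.84 in Ku70-/- clone B1, 74.6% ± 22.1 in clone A1_1 and 75.8% ± 8.82 in clone C1. For comparison, 17 of the 53 joins that kept the end in Ku70-/- clone A1 carried an insertion.

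Among insertion joins, the share with an intact Jk1 end was 50.7%, 51.0% and 49.6% in WT clone A and 52.9%, 53.0% and 53.2% in WT clone B. It was 8.16%, 4.08% and 10.8% in Ku70-/- clone A1 and 22.3%, 22.0% and 23.01% in clone B1, all below WT. The difference was -36.7 points, also within sequencing runs (lineage A -42.8, lineage B -30.6; exact permutation p = 0.005, adjusted p = 0.0095), and -22.8 points over distinct joins, -16.8 with joins merged on gap and -21.5 over joins with at least 2 identical rows. Against Lig4-/- +Lig4, the Lig4-/-Ku70-/- libraries differed by -17.3 points, or -10.5 with joins merged on gap (exact permutation p = 0.005, adjusted p = 0.0095). Adding Ku70 to clone C1 gave 41.7%, 21.5% and 26.7% against 40%, 29.3% and 23.6% without it, and these ranges overlapped (difference -1.03 points, exact permutation p = 0.8).

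Once bases were lost from Jk1, insertions were scarce in the Ku70-deficient cells but not in WT. With 1 to 3 bases lost, 56.4% ± 0.805 of WT clone A joins and 31.7% ± 0.124 of WT clone B joins had an insertion, against 1.69% ± 0.348 in Ku70-/- clone B1. With 4 to 10 bases lost the shares were 86.3% ± 1.74, 72.4% ± 0.55 and 1.46% ± 0.156, and with 11 to 30 lost 84.8% ± 3.65, 75.6% ± 1.03 and 1.55% ± 0.0774. Lig4-/-Ku70-/- ranged from 0.839% to 6.54% over these 3 classes and both clones. Lig4-/- +Lig4 had 56.7% ± 7.27 in clone A1 and 78.4% ± 1.35 in clone C at 4 to 10 bases lost. All these shares count rows. Over distinct joins WT clone B fell from 89.6% at an intact end to 83.9%, 81.6% and 76.6% in the 3 classes. WT clone A had 83.7%, 78.7%, 89.4% and 86.9% in the same order, and Ku70-/- clone B1 60.8%, 2.68%, 3.78% and 2.64%. The row profile of WT clone B thus did not carry over to distinct joins.

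**Figure D3:**
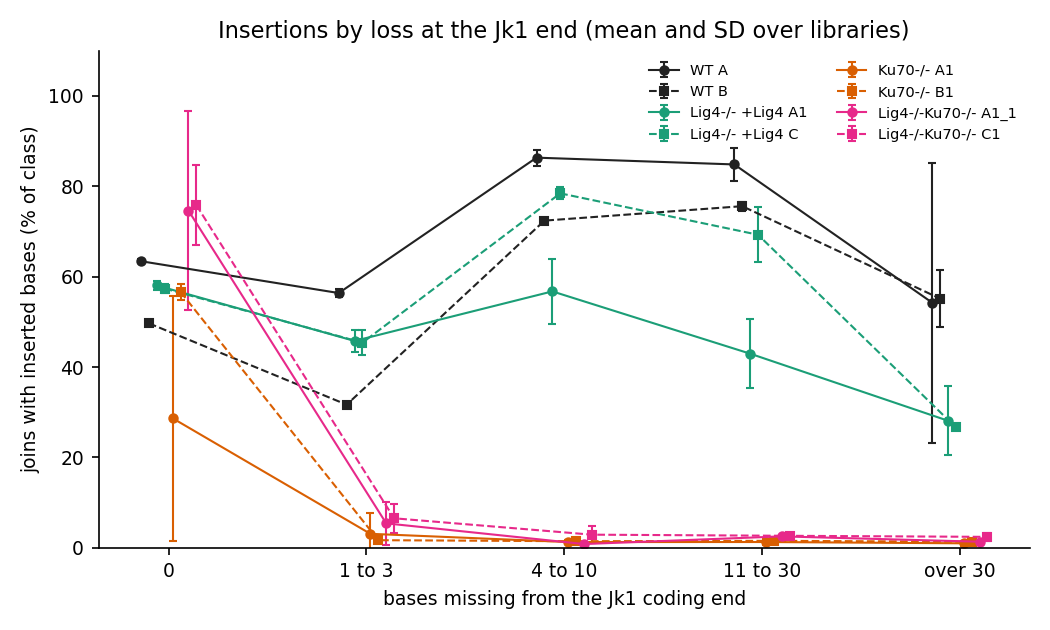
Percent of joins, counted as rows, with inserted bases in each class of bases missing from the Jk1 coding end, as means over libraries with SD. Circles with solid lines are lineage A and squares with dashed lines are lineage B or C. WT holds 86.3% and 72.4% at 4 to 10 lost bases, while Ku70-/- clone B1 falls from 56.6% at an intact end to 1.69% at 1 to 3 lost bases.

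The Vk end was examined in the same way. In joins of coding orientation with both ends trimmed, insertions made up 62.8% ± 1.46 (SD, n = 3) in WT clone A, 37.5% ± 0.317 in WT clone B, 1.29% ± 0.407 in Ku70-/- clone A1, 1.48% ± 0.131 in Ku70-/- clone B1, and 0.700% ± 0.197 and 1.37% ± 0.491 in Lig4-/-Ku70-/- clones A1_1 and C1. With Jk1 trimmed and Vk intact, Ku70-/- clone B1 had 44.5% ± 0.902 and the Lig4-/-Ku70-/- clones 79.8% ± 10.4 and 74.2% ± 5.86. With both ends intact, all 10 joins of clone A1_1, all 34 of clone C1 and 35 of 42 in Ku70-/- clone B1 had an insertion, against 38.7% ± 2.00 of joins in WT clone A and 26.2% ± 0.715 in WT clone B.

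What was inserted beside an intact Jk1 end also differed. A palindromic run is the stretch of inserted bases, counted from Jk1, that is the reverse complement of the last retained Jk1 bases. The first inserted base was palindromic (a G) in 80.7% ± 0.774 (SD, n = 3) of such rows in WT clone A, 82.3% ± 0.0548 in WT clone B and 98.5% ± 0.321 in Ku70-/- clone B1. It was palindromic in 13 of 17 rows in Ku70-/- clone A1, which over rows is no higher than WT. The 4 such rows of replicate 1 all lacked it, and they were 1 distinct join. Of the 11 distinct joins of clone A1, only that join lacked it. Over distinct joins the WT libraries held 70.4 to 74.3% in clone A and 72.4 to 72.7% in clone B. Both of the first 2 bases were palindromic in 20.1% ± 1.58 of rows in WT clone A, 23.4% ± 0.205 in WT clone B, 91.8% ± 2.03 in Ku70-/- clone B1 and 10 of 17 rows in Ku70-/- clone A1. At trimmed Jk1 ends the first base matched in 17.9% ± 0.327 of rows in WT clone A, 19.4% ± 0.111 in WT clone B and 22.9% ± 1.79 in Ku70-/- clone B1. The whole insertion was palindromic in 88.4% ± 0.89 of the Ku70-/- clone B1 rows and in 33.6% ± 0.776 and 42.6% ± 0.212 of the WT rows.

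Mean run length was 1.12, 1.19 and 1.17 bases in WT clone A, 1.21 in each WT clone B library, and 4.97, 4.71 and 5.24 in Ku70-/- clone B1. The 3 mutant libraries lay above the 3 WT libraries of their lineage by 3.76 bases (exact permutation p = 0.1, the smallest that 3 against 3 can give). In Ku70-/- clone A1 only 17 insertion rows had an intact Jk1 end, and 3 of them held a run of 6 or more bases. Lig4-/-Ku70-/- runs averaged 3.95, 4.00 and 4.67 bases in clone A1_1 and 5.98, 9.48 and 7.57 in clone C1, against 1.12 to 1.14 in the Lig4-/- +Lig4 libraries. This difference was 4.82 bases (lineage A 3.08, lineage C 6.56; exact permutation p = 0.005, adjusted p = 0.0095). The share whose first base was palindromic was 18.8 points higher in Lig4-/-Ku70-/- than in Lig4-/- +Lig4 (exact permutation p = 0.005, adjusted p = 0.0095). Over distinct joins only lineage C kept 10 or more such joins per library, and there the differences were 6.30 bases and 28.4 points (exact permutation p = 0.1 for both, the smallest possible).

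Runs of 6 or more bases at an intact Jk1 end made up 37.8% ± 3.07 of rows in Ku70-/- clone B1, 22.8% ± 6.77 in Lig4-/-Ku70-/- clone A1_1 and 51.3% ± 21.5 in clone C1. In WT they made up 0.0644% ± 0.0445 in clone A and 0.0898% ± 0.00824 in clone B, and in Lig4-/- +Lig4 0.139% ± 0.124 and 0.151% ± 0.01. Counted as distinct joins, they were 232 of 606 in Ku70-/- clone B1, 11 of 41 and 32 of 63 in Lig4-/-Ku70-/-, 28 of 11340 and 144 of 35443 in WT, and 11 of 4620 and 30 of 9471 in Lig4-/- +Lig4. Runs of 10 or more bases were 98 of 606 distinct joins in Ku70-/- clone B1 and 26 of 63 in clone C1, and none was found in WT or Lig4-/- +Lig4. At trimmed Jk1 ends no insertion of Ku70-/- or Lig4-/-Ku70-/- had a run of 6 or more, among 2527 rows in Ku70-/- clone B1 and 492 in clone C1. In the small Lig4-/- clone B1 libraries 3 of 15 distinct joins had such a run, and in clone C1 with Ku70 added back 3 of 11 did.

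**Figure D4:**
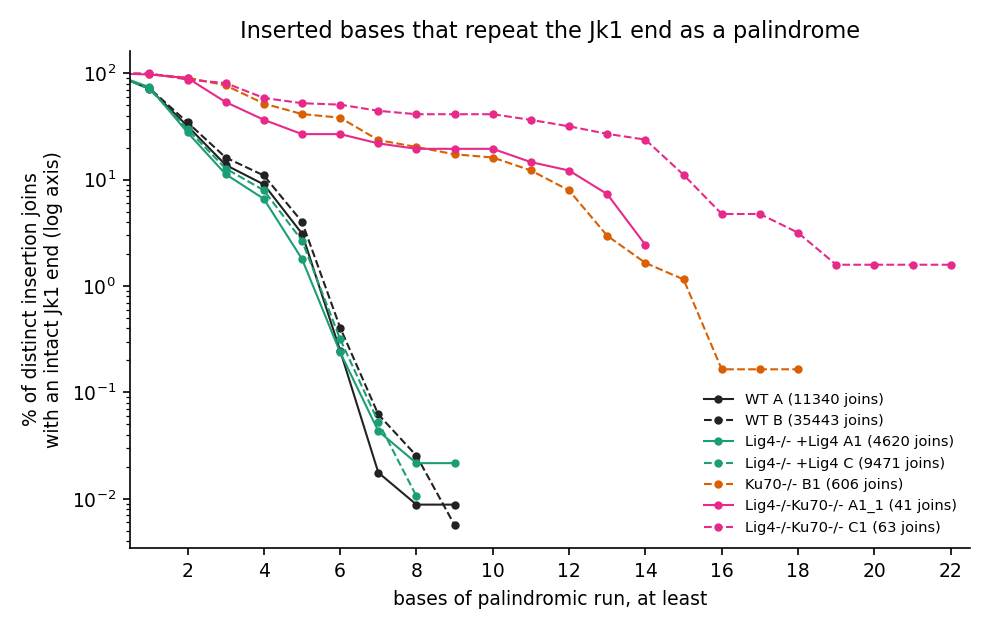
Percent of distinct insertion joins with an intact Jk1 end (log axis) whose palindromic run has at least the given number of bases, pooled over 3 libraries per group. WT and Lig4-/- +Lig4 end at 9 bases or fewer, whereas Ku70-/- clone B1 reaches 18 and Lig4-/-Ku70-/- clone C1 reaches 22.

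Palindromes of the Vk end were counted in the same way. At intact Vk ends, runs of 6 or more bases made up 40.8% ± 8.58 (SD, n = 3) of insertion rows in Ku70-/- clone B1, 45.04% ± 14.4 in clone A1_1 and 45.7% ± 10.8 in clone C1, against 0.128% ± 0.037 in WT clone A and 0.0629% ± 0.0246 in WT clone B. At trimmed Vk ends they were absent from the 2104 Ku70-/- clone B1 rows and the 244 clone C1 rows. The Vk end differs between segments, so these runs do not share 1 sequence as those of Jk1 do.

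Base composition also differed between genotypes. All compositions are read on the strand printed above. In WT, G was the most frequent inserted base, at 42.6% ± 0.621 (SD, n = 3) in clone A and 41.9% ± 0.131 in clone B, and the single palindromic G at Jk1 counts towards this. In Ku70-/- clone B1 the 4 bases were nearer to even, with G at 25.8% ± 0.736 and A at 22.4% ± 1.35. G and C together made up 60.5%, 61.3% and 61.8% of inserted bases in WT clone A, 58.0%, 58.1% and 58.0% in WT clone B, 49.7%, 63.6% and 49.1% in Ku70-/- clone A1 and 52.1%, 51.6% and 52.5% in clone B1. One clone A1 library, the second, lay above all WT libraries. The mean difference was -6.52 points (exact permutation p = 0.02, adjusted p = 0.0345). It missed the threshold over distinct joins (-4.01 points, exact permutation p = 0.17) and without any 1 of the WT clone A libraries (exact permutation p = 0.065 for each). Between Lig4-/-Ku70-/- and Lig4-/- +Lig4 the difference was -4.96 points (exact permutation p = 0.025, adjusted p = 0.0396), and this too missed the threshold without insertions over 20 bases (-4.26 points, exact permutation p = 0.08), and without Lig4-/-Ku70-/- clone A1_1 replicate 2 or any 1 of the Lig4-/- +Lig4 libraries (exact permutation p = 0.05 to 0.06).

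Where neither end was intact, insertions of 1 to 6 bases in WT remained rich in G and C: 32.0% ± 0.818 G, 28.8% ± 0.552 C, 24.9% T and 14.3% A in clone A, and 32.0% ± 0.417 G, 26.3% C, 25.8% T and 16.0% A in clone B. Lig4-/- +Lig4 had 34.3% ± 1.06 G and 14.2% A in clone A1. In Ku70-/- clone B1 the same class held 29.9% ± 2.27 A, 29.5% ± 1.04 C, 22.0% T and 18.6% ± 1.63 G. A was thus the least frequent base in WT, while in Ku70-/- clone B1 A and C differed by less than the spread between libraries and G was lower than both. Ku70-/- clone A1, with 116 such insertions, had A at 18.5% ± 6.81 and did not share the higher level of clone B1. These shares were not tested. The commonest inserted strings over distinct joins were T, G, A, TC and GG in WT, and A, GTG, C, GT and T in Ku70-/-. GTG, GT and GTGGAC, the last with 81 distinct joins in Ku70-/-, are palindromes of the Jk1 end.

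Insertions of 8 or more bases fell into different classes between groups. Counted as distinct joins, 33.3% of 657 in Ku70-/- clone B1, 78.05% of 41 in Lig4-/-Ku70-/- clone A1_1 and 68.4% of 98 in clone C1 held a palindrome of 6 or more bases from either end. Only 2 of 16 did in Ku70-/- clone A1, where 2 ended in a copy of a Vk end and 12 did neither. In WT these were 0.395% of 1266 in clone A and 0.289% of 10366 in clone B, and in Lig4-/- +Lig4 1.41% of 213 and 0.643% of 622. Many long WT insertions instead ended in at least 8 bases that occur within the first 45 bases of some Vk coding end: 45.5% in clone A and 77.97% in clone B, with 37.6% and 40.03% in Lig4-/- +Lig4, 44.0% in Ku70-/- clone B1, and 1 of 41 and 6 of 98 in Lig4-/-Ku70-/-. The copied end was of the same Vk family as the joined segment in 92.0% of cases in WT clone A and 79.6% in WT clone B, with no background share computed. The joined segment itself was among the sources in at most 0.692% of cases in WT, Ku70-/- clone B1 and Lig4-/- +Lig4, the groups in which sources were traced. Bases that equal the joined segment's own flank are taken into the alignment, so this low share is partly set by the method. Igkv4 segments were joined in 77.6% of these WT clone A cases and in 39.4% of all distinct insertion joins there. The same shares were 47.8% and 31.7% in WT clone B, and 46.7% and 28.4% in Ku70-/- clone B1. In Lig4-/- +Lig4 they were 80% and 37.1% in clone A1, and 71.5% and 35.2% in clone C. Assignment of the prey among near-identical Vk copies was the authors', so whether these are second joins or reads split between related segments was not tested. Leaving them out moved no comparison across its threshold.

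**Figure D5:**
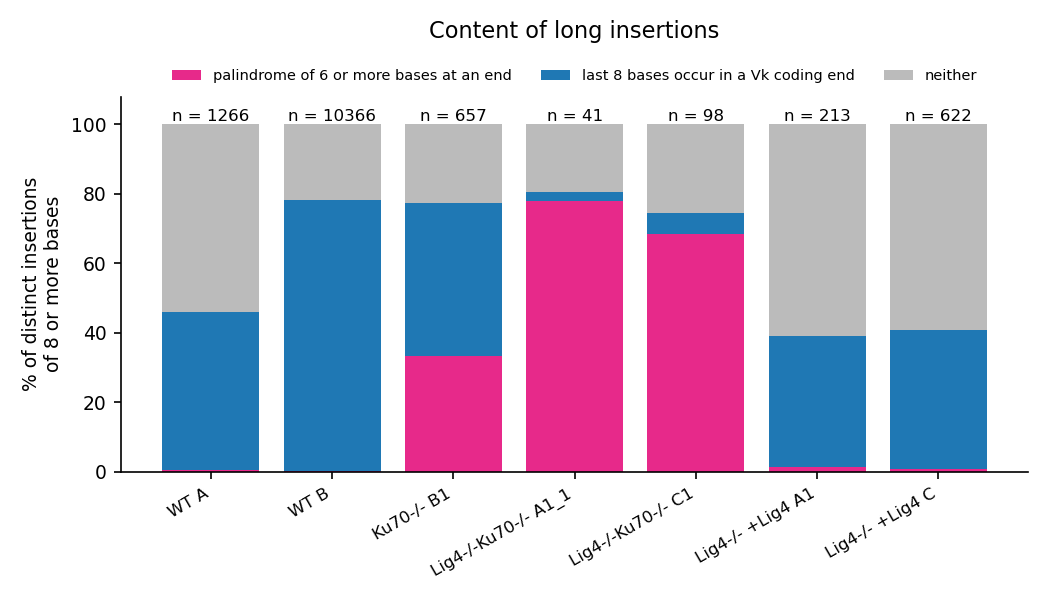
Percent of distinct insertions of 8 or more bases that hold a palindrome of at least 6 bases from either end (pink), that end in 8 bases of a Vk coding end (blue), or neither (grey), pooled over 3 libraries, with the number of insertions above each bar. Palindromes fill 78.05% and 68.4% of the Lig4-/-Ku70-/- bars and under 2% of the WT and Lig4-/- +Lig4 bars.

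Insertion shares were also set out by Vk segment. The 5 segments with the most distinct insertion joins were Igkv1-135 (chr6:67609745-67610508, plus strand), Igkv4-50 (chr6:69700767-69701287, minus strand), Igkv12-44 (chr6:69814631-69815100, minus strand), Igkv1-117 (chr6:68121091-68121825, plus strand) and Igkv4-61 (chr6:69416893-69417425, minus strand), all RefSeq V segments. In WT clone B their insertion shares ran from 42.1% ± 0.513 (Igkv4-50) to 47.1% ± 0.862 (Igkv1-135). In Ku70-/- clone B1 they were 1.96% ± 0.0587 for Igkv1-135, 2.48% ± 0.39 for Igkv4-50, 1.39% ± 0.588 for Igkv12-44, 1.46% ± 0.181 for Igkv1-117 and 7.30% ± 0.999 for Igkv4-61. Igkv4-61 was the highest of the 76 segments with 100 or more rows in each Ku70-/- clone B1 library, where the median was 1.92%; 21.8% of its insertions ended in a copy of a Vk end, and its share without them was 5.79% ± 1.04. In the Lig4-/-Ku70-/- clones A1_1 and C1, Igkv1-135 had 10.3% ± 5.57 and 5.02% ± 2.08. Igkv4-61 had 14.5% ± 7.71 (n = 2) and 5.91% ± 5.40, from 24 and 173 rows. The other 3 segments lay between 1.87 and 4.35% in both clones.

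Among the 105 segments measured in WT clone B, the median share was 42.7%, the lowest was Igkv4-90 at 28.8% ± 2.64 and the highest was Igkv4-62 at 87.3% ± 2.09. These extremes were chosen after their values were seen. For Igkv4-62, 47.1% of insertions ended in a Vk copy and the median length was 12 bases; without the copies its share was 78.4% ± 2.85.

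Joins in the coding orientation made up 98.9% ± 0.182 (SD, n = 3) of rows in WT clone A and 69.4% ± 0.563 in Ku70-/- clone B1. The coding orientation of each segment was the commoner one among WT joins near its end. That choice favours a high share in WT, so these 2 shares are not an independent comparison. In Ku70-/- clone B1, 1.48% of the joins in other orientations or outside an oriented segment carried an insertion, and 2.12% of coding-orientation joins did.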

How the data were processed

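Junctions at the Jk1 coding end were mapped in 42 libraries with LAM-HTGTS, per the labels; aligner Bowtie2 and build mm10 are named in the submitters' processing notes, with no version. The deposited lists give 1 row per read with other, unnormalized values: positions of bait and prey on genome and read, and the read sequence. The authors scaled libraries to 167151, 377068 or 600000 raw reads, per the labels. Here the gap (prey start minus bait end minus 1 on the read), the inserted bases and Jk1 loss (bait end minus 70722562) were computed with Python 3.11.15, pandas 2.3.3 and NumPy 2.4.6. Vk segments came from RefSeq GRCm38.p6; Vk flanks were read from the deposited reads. Vk coding ends were oriented for 131 of 162 segments, by the commoner prey orientation of WT joins near the segment end.

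Libraries were the replicates. Means were compared by two-sided exact permutation within lineage, averaged over lineages, with Benjamini-Hochberg adjustment over 19 tests. Measures within insertions needed 10 rows in each library; otherwise the lineage dropped out. Segments named are the 5 with most distinct insertion joins; recurrent example joins are those in the most libraries of a genotype. Scripts were tested on simulated joins. The members, measures and lists were chosen with earlier results of these data known. Alternatives changed the unit counted, insertion minimum and maximum, near-germline insertions, block, sequencing run and replicates; Vk copies, orientation, palindrome length and the comparison of Lig4-/-Ku70-/- with Lig4-/- +Lig4 were added later. A near-germline insertion was at least 4 bases long and differed from the unjoined flank at no more than 1 position.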

Additional observations from a re-analysis of the deposited data

Results flagged for a closer look

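Several differences between genotypes were of unequal size in the 2 lineages compared, over 14 comparisons. The mean effect of both lineages was first taken off the values of the genotype named first. Genotype labels were then permuted within each lineage, and the difference between the lineage effects was compared with the observed one. In these comparisons lineage goes with clone, sequencing run and depth, and with the instrument for lineage B, and these cannot be told apart.

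Counted over rows, the insertion share fell further below WT in Ku70-/- lineage A (-60.6 points) than in lineage B (-41.0 points), a gap of -19.6 points (exact permutation p = 0.005, adjusted p = 0.014), and the 2 WT clones themselves stood at 61.9% and 42.9%. Over distinct joins at full depth this gap was not seen. WT shares there were 77.1 to 83.3% in clone A and 83.3 to 83.4% in clone B. Ku70-/- shares there were 2.05 to 3.28% in clone A1 and 3.17 to 3.69% in clone B1. At the common depth of 500 rows the expected distinct shares were 64.0% and 46.3% in WT clones A and B, against 1.52% and 1.95% in Ku70-/- clones A1 and B1. The row share in Lig4-/- against WT differed by -34.5 points between lineages (A -52.2, B -17.8; exact permutation p = 0.005, adjusted p = 0.014).

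Mean insertion length in Ku70-/- against WT rose by 0.763 bases in lineage A and 2.58 in lineage B, a gap of -1.82 bases (exact permutation p = 0.005, adjusted p = 0.014). In Lig4-/-Ku70-/- against Lig4-/- +Lig4 the gap was -1.61 bases (lineage A 3.16, lineage C 4.77; exact permutation p = 0.015, adjusted p = 0.035). The share of insertions with an intact Jk1 end differed by -12.2 points between lineages for Ku70-/- against WT (A -42.8, B -30.6; exact permutation p = 0.005, adjusted p = 0.014).

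The palindromic run at an intact Jk1 end lengthened by 3.08 bases in lineage A and 6.56 in lineage C for Lig4-/-Ku70-/- against Lig4-/- +Lig4, a gap of -3.48 bases (exact permutation p = 0.005, adjusted p = 0.014).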

How the results depend on the processing

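The lower insertion share and intact-end share of Ku70-/- against WT, the lower share of Lig4-/- against WT and the higher share of Lig4-/- +Lig4 kept their direction and side of the threshold under all alternatives run; the Ku70-/- share ran from -79.0 (distinct joins) to -32.9 points (at least 2 inserted bases). Alternatives were judged on p-values before adjustment. Without 1 library at a time, Lig4-/-Ku70-/- against Lig4-/- ran from -6.89 to -1.42 points, and Ku70 add-back from 1.82 to 4.48. Mean length in Ku70-/- against WT missed the threshold as a median (0.667 bases) and with joins merged without the inserted sequence (0.340). Inserted GC there missed it over distinct joins (-4.01), merged joins (-4.48), joins with at least 2 identical rows (-1.25) and at least 2 bases (-6.02), and ran from -8.88 to -5.26 without 1 library. For Ku70 add-back in clone C1, length turned to 0.333 as a median, and over single libraries left out ran from -2.17 to 0.0845; the intact-end share ran from -6.88 to 3.48, crossing 0 without replicate 2 (3.18) or replicate 3 (0.618) with Ku70, or replicate 1 without it (3.48). The cause was not tested.

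Whether replicate numbers pair the libraries could not be settled. Same-numbered deviations correlated at -0.917 to 0.965 over the comparisons, each from few libraries. In lineage A, replicate 2 of WT and of Ku70-/- shared a sequencing run, as did replicate 3 of both. With the replicate block the smallest p was 0.0312; inserted GC missed the threshold (-6.52 for Ku70-/-, exact sign-flip p = 0.0625; -4.96 for Lig4-/-Ku70-/- against Lig4-/- +Lig4), and no other call changed. Depth limits Lig4-/- most: with under 10 insertions in most libraries, its measures within insertions, and those of clone A1_1 with Ku70, were not run, nor was the common depth of 500 rows for them. The added comparison of inserted GC also missed the threshold as a mean over joins (-5.10).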
